A study of Mus musculus with 16 samples.

Results

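Carry-over melanoma cells are tumour cells that stayed in immune cell preparations from B16 mouse melanomas. They were taken from 8 single-cell lanes as barcodes with at least 200 genes and at most 10% of counts from mitochondrially encoded genes. Each had at least 30 unique molecular identifiers (UMIs, one per captured transcript) over the pigment genes Mlana, Pmel, Dct and Tyrp1. It also had no UMI of Ptprc, which encodes CD45, none of Cd3d or Cd3e, and at most 5 of C1qa, C1qb and C1qc together. The rule found 767 cells among 99357 passing barcodes, or 0.772%, of 116552 deposited barcodes. The cells were selected on their pigment, Ptprc, CD3 and complement gene counts, so the levels of those genes are a description only.

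C57BL/6J mice received 1000000 cells of the Bro4.1 B16 line under the skin, either control cells or cells without functional B2m, and were then given intraperitoneal doses of 100 µg of anti-CD40 or of a rat IgG2a isotype antibody, on days 6, 9 and 12. Tumours were taken on day 14, and cells held on CD45 magnetic beads were stained with a hashtag antibody per mouse, pooled by group and loaded. All groups share the host, the cell line and the CD45 selection, and lanes were loaded as pools of mice. In B2m-null CD40 replicate 1, hashtag 2 led 10697 passing barcodes and hashtag 1 led 10, so the counts of that lane show 1 hashtag. There were 2 replicate pools each of B2m-null CD40, B2m-null isotype and control isotype. Control CD40 was 1 pool on 2 lanes labelled as technical replicates, which were summed, so that 7 samples entered the fits. These lanes differed in their hashtags. Hashtag 2 led 6825 passing barcodes and hashtag 1 led 6042 in lane 1, against 13590 and 33 in lane 2. Why the lanes differ was not tested, and the labels were followed. The sample labels write the B2m loss as a genotype of the mouse, whereas the design text puts it in the implanted cells, and the design text was followed. How the B2m-null line was made, and whether it is 1 clone, is not given in the sources used here. Whether replicate pools came from separate experiments is not given either, so p-values measure the spread between these pools.

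B16 is a pigmented melanoma line of C57BL/6 origin. Its cells carry little surface MHC class I at rest and gain it when interferon-gamma signalling acts on the class I heavy chains, the TAP peptide transporter and the immunoproteasome. B2m is the light chain that class I heavy chains generally need to reach the cell surface. CD40 is a receptor of antigen-presenting cells, and an agonistic antibody activates those cells.

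Upstream sequences are shown for B2m, the gene lost in the B2m-null line, for the class I heavy chain H2-K1 and for the pigment gene Dct. Each is the part of the 250 bases before the RefSeq transcription start (GRCm38.p6) that lies outside the gene's GENCODE M21 exons, 5′ to 3′ on the gene's strand. Capitals mark, in B2m and H2-K1, GAAA, any 2 bases and GAAA, the core of an interferon-stimulated response element, or the letters TTCNNNGAA of a gamma-activated site, and in Dct the letters CATGTG of the M-box, each searched on both strands.
B2m (chr2:122147437-122147685, plus strand): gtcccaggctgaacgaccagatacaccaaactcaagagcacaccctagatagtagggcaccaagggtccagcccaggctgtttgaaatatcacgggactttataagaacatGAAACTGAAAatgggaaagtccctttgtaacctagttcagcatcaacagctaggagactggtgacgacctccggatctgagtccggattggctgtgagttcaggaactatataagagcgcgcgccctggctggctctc
H2-K1 (chr17:34000348-34000597, minus strand): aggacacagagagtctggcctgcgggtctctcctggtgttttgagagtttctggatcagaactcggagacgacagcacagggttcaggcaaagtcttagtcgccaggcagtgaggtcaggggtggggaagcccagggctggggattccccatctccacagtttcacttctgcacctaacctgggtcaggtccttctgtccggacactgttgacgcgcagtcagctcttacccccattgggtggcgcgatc
Dct (chr14:118052247-118052496, minus strand): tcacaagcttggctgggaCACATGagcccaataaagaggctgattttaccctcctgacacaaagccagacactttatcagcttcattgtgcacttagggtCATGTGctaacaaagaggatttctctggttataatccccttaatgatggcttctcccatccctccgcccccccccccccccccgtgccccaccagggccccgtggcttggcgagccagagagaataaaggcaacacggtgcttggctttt
The whole 250 bases were searched in 8 antigen presentation and interferon genes, of which 3 held a motif. The GAAA pair lay 139 bases before the RefSeq start of B2m, as GAAACTGAAA, and 59 bases before that of Gbp2, on the other strand as TTTCACTTTC. TTCNNNGAA lay 97 bases before the RefSeq start of Psmb8, as TTCCCAGAA. The matches of Gbp2 and Psmb8 lie inside exons in GENCODE M21, which starts both genes further upstream, Psmb8 at chr17:34197721-34201454. The windows of H2-K1, H2-D1, Psmb9, Tap1 and Cxcl9 held neither. Those of H2-D1 and Psmb9 lie inside the genes as GENCODE M21 bounds them, so bases before the GENCODE starts were not searched. Near matches to the letters were not searched in any window. Among 32851 RefSeq windows of the same length, 2.98% hold the first motif, 7.02% the second and 12.3% the M-box letters. These lay 150 and, on the other strand, 232 bases before the start of Dct, and 46 bases before that of Tyrp1, there inside a GENCODE exon. B2m itself lies at chr2:122147686-122153083 on the plus strand in GENCODE M21 (GRCm38), as a protein-coding gene.

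The label was checked on melanocytic genes that the rule did not use. Tyr, Sox10, Mitf, Slc45a2 and Gpr143, the 5 melanoma markers outside the rule, summed to between 1173 and 1876 CPM (UMIs of a gene per 1000000 UMIs summed over the cells of a sample), against 42.5 to 116.5 CPM in the Ptprc-positive barcodes of the same samples. With the 4 pigment genes, whose level the rule fixed to be high, the sum was 10691 to 14192 CPM, and 755 of the 767 cells held all 4. Of the 5, Sox10, the transcription factor of the neural crest lineage, stood at 95.1, 112.5 and 111.8 CPM in the control samples (isotype replicates 1 and 2, then the CD40 pool) and at 101.6, 109.7, 104.2 and 118.8 CPM in the B2m-null samples (isotype replicates 1 and 2, then CD40 replicates 1 and 2). Its level in Ptprc-positive barcodes was 1.27 to 6.27 CPM. This order of samples is kept in all lists of values below.

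Markers of most other cell types were below their level in Ptprc-positive barcodes, with exceptions in single samples. Leaving out Cd3d and Cd3e, which the rule sets to 0, the other 8 T cell markers summed to 1.33 to 12.0 CPM against 292.8 to 2076 CPM in Ptprc-positive barcodes, and the 5 keratinocyte markers to at most 0.271 CPM. The 9 macrophage markers other than C1qa, C1qb and C1qc summed to 578.2 to 1206 CPM against 15158 to 20934 CPM. Most of that sum was Apoe, a lipid carrier protein, at 422.0 to 764.6 CPM, and the other 8 summed to 103.6 to 541.5 CPM against 13083 to 18372 CPM. The 7 fibroblast markers reached 247.2 CPM in B2m-null isotype replicate 1, against 320.9 CPM in its Ptprc-positive barcodes, and 2.40 to 16.2 CPM in the other 6 samples. Col1a1 was present in 25 cells, 1 of them in B2m-null isotype replicate 1 with 178 UMIs. The 4 erythrocyte markers summed to 114.3 CPM in control isotype replicate 2, against 34.1 CPM, and to at most 1.38 CPM elsewhere. The 6 endothelial markers were above the Ptprc-positive barcodes in the B2m-null CD40 samples, at 41.5 against 37.8 CPM and 58.8 against 36.7 CPM, with Cdh5, Kdr, Cldn5 and Emcn at 0 in both, and below them in the other 5. The 5 Schwann cell markers, which include Sox10 of the melanocytic programme, were above the Ptprc-positive barcodes at 241.5 to 368.3 CPM. The 4 myeloid genes Tyrobp, Fcer1g, Ctss and Lyz2 together stood at 0.590% to 1.98% of their level in Ptprc-positive barcodes, which gives a measure of leukocyte RNA in the same droplets.

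The cells were large libraries. The median cell held 21348 UMIs (range 1298 to 110755) and 5062 genes, against lane medians of 1985 to 5698 UMIs in Ptprc-positive barcodes. The pigment genes gave a median of 233 UMIs per cell, and few cells were near the threshold: 8 cells had 30 to 34 pigment UMIs, and 14 barcodes that met the other limits had 25 to 29. The other limits removed more, since 1301 barcodes reached 30 pigment UMIs, of which 459 held Ptprc, 133 held Cd3d or Cd3e and 213 had more than 5 C1q UMIs. No barcode was shared between the melanoma cells of different lanes in any of 28 lane pairs. Other barcodes of the lanes were not compared.

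The number of melanoma cells varied most among B2m-null tumours. They made up 0.620% and 0.760% of passing barcodes in control isotype, 0.857% in the control CD40 pool, 1.70% and 0.747% in B2m-null isotype, and 0.448% and 0.168% in B2m-null CD40. B2m-null samples averaged 0.765% ± 0.665 (SD, n = 4) and control samples 0.746% ± 0.119 (SD, n = 3), a difference within the spread between samples (exact two-sided permutation p = 0.971, adjusted p = 0.971 over 4 measures). Within B2m-null tumours both CD40 samples were below both isotype samples, with means of 0.308% and 1.22%. The exact two-sided permutation p of 0.333 is the smallest that 2 against 2 samples can give. The share is one of CD45-selected barcodes and does not measure tumour size.

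**Figure D1:**
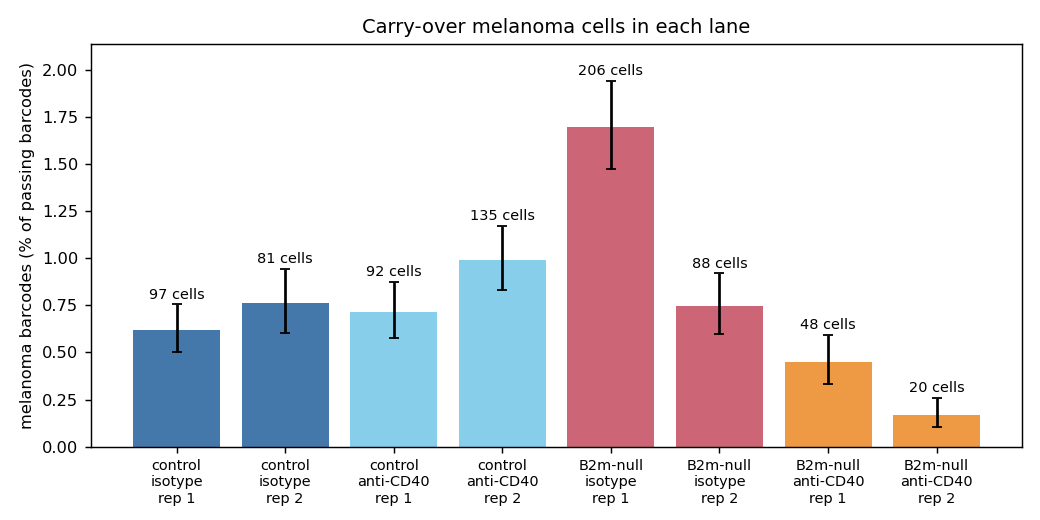
Melanoma cells as a percentage of passing barcodes in each of 8 lanes, with exact Clopper-Pearson 95% intervals for counting error and the number of cells above each bar. B2m-null isotype replicate 1 is highest at 1.70% (206 cells) and B2m-null CD40 replicate 2 lowest at 0.168% (20 cells).

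Hashtag antibodies, which bind surface proteins and which the rule did not use, gave lower counts on melanoma cells than on leukocytes. The median cell held 348 and 156 hashtag counts in control isotype, 304.5 and 383 in the 2 control CD40 lanes, 266 and 148 in B2m-null isotype, and 388.5 and 240 in B2m-null CD40. Ptprc-positive barcodes of the same lanes held 329 to 874. In all 8 lanes the melanoma cells were lower. On the log2 scale the ratio was -0.70, -1.25 and -0.99 in the control samples and -0.31, -1.21, -0.97 and -1.20 in the B2m-null samples, with no difference between genotypes beyond the spread (difference 0.05, exact two-sided permutation p = 0.800, adjusted p = 0.971 over 4 measures).

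Per hashtag, most counts on melanoma cells lay near the hashtag's background. Background here is the median count of a hashtag in barcodes led by another one. For hashtag 2 of control isotype replicate 1 it was 256, and melanoma cells held 286. For hashtag 2 of B2m-null CD40 replicate 2 it was 184, and melanoma cells held 181.5. At least 100 such barcodes were present for 16 of 18 hashtags. Of these, 2 led barcodes whose median count was 0, hashtag 1 of B2m-null isotype replicate 1 (3 in the background and 1 on melanoma cells) and hashtag 1 of B2m-null CD40 replicate 1 (13 and 9.5). Across the other 14 hashtags, 11 medians on melanoma cells were within 25% of background, and the ratio ranged from 0.543 to 1.60. For hashtag 2 of control CD40 lane 2, which led all 135 melanoma cells of that lane, the background rests on 33 barcodes and was 103, against 341 on melanoma cells and 840 on Ptprc-positive barcodes. Few melanoma cells could be tied to a mouse. At least 10 were assigned for 1 hashtag, with 47 of 48 cells in the lane of B2m-null CD40 replicate 1 that shows 1 hashtag, where the background rests on 10 barcodes. The median of that background was 0, so the assignment there says little.

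**Figure D2:**
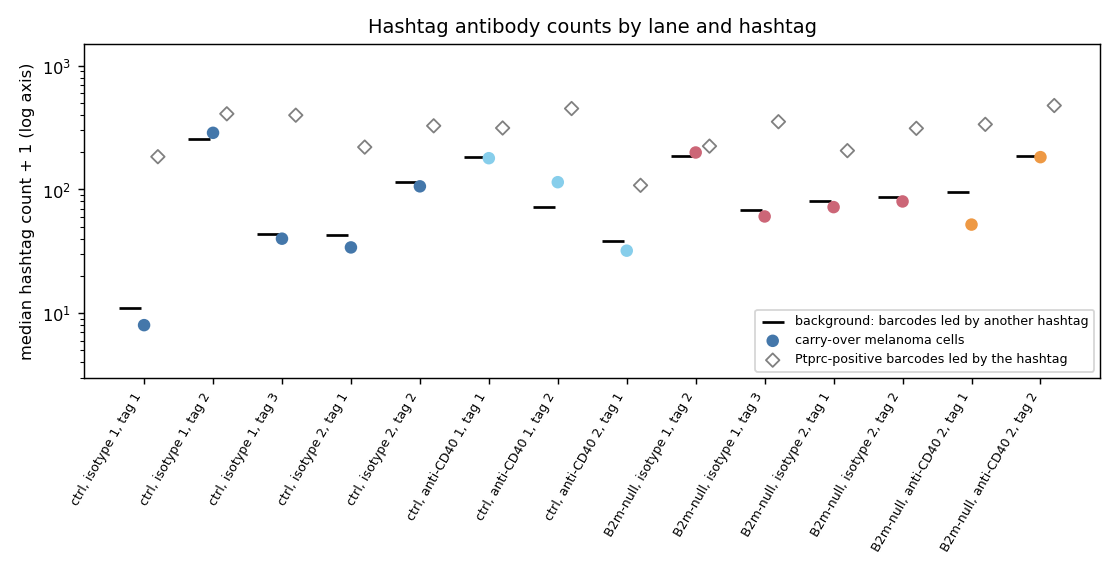
Median hashtag count plus 1 (log axis) for 14 hashtags in 7 lanes, for barcodes led by another hashtag (bars), melanoma cells (filled circles, coloured by group) and Ptprc-positive barcodes led by the hashtag (open diamonds). Most circles sit beside the background bars, for example 181.5 against 184 in B2m-null CD40 replicate 2, and all sit below the diamonds; 4 hashtags with a background of under 100 barcodes or a median of 0 in barcodes they lead are not drawn, among them both of B2m-null CD40 replicate 1.

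Levels of the 4 pigment genes and of Mitf overlapped between the lines. Dct, which acts in eumelanin synthesis beside Tyrp1, stood at 4617, 4415 and 6238 CPM in the control samples and at 5102, 5562, 3947 and 4717 CPM in the B2m-null samples. Tyrp1 ranged from 2186 to 2909 CPM, Pmel, the protein of melanosome fibrils, from 1696 to 2336 CPM, and Mlana from 1343 to 1922 CPM, with the genotypes overlapping for each. Mitf, the master regulator of the lineage, was at 599.5, 576.5 and 532.9 CPM in control and 767.9, 658.4, 464.4 and 619.3 CPM in B2m-null samples. Of 25 lineage and pigment genes outside the rule, 24 had enough counts to be tested by edgeR's quasi-likelihood test over 10668 genes, and none differed between genotypes at an adjusted p under 0.05 (median log2 fold change -0.07). Over all genes 0.15% were called lower and 0.0187% higher, so a list of this size would hold few calls in any case. The samples of the genotypes did not overlap for 1 of the 24 genes, higher in B2m-null cells, where over all genes 1.61% were higher and 2% lower in that way. It was Tfap2a, a transcription factor of the lineage, at 54.7, 56.7 and 45.3 CPM in control and 65.6, 57.8, 79.9 and 74.4 CPM in B2m-null samples. In the CD40 comparisons, 1 of the 24 genes was called, S100a1 in control tumours, where 0.534% of all genes were called higher.

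Tyr, the tyrosinase that catalyses the first step of melanin synthesis, was split by treatment in B2m-null tumours. It measured 543.2 and 472.8 CPM under isotype and 260.0 and 294.1 CPM under CD40, with no overlap. The log2 fold change of -0.74 (SE 0.16) did not pass edgeR's test after Benjamini-Hochberg adjustment (adjusted p = 0.0816). In control tumours Tyr was 377.6 and 345.4 CPM under isotype and 451.0 CPM in the CD40 pool, and the difference between these responses, -1.21 on the log2 scale (SE 0.24), was not called either (adjusted p = 0.0979). Myo5a, the motor protein that moves melanosomes, measured 275.7 and 278.3 CPM under isotype and 151.8 and 140.4 CPM under CD40 in B2m-null tumours, and was not called (-0.79, SE 0.17, edgeR adjusted p = 0.0816). In this comparison 12 of the 24 genes were lower and 4 higher in both CD40 samples than in both isotype samples, where over all genes 33.7% were lower and 16.5% higher in that way. Tyr and Myo5a were named after their values were seen.

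B2m (ENSMUSG00000060802), the gene targeted in the line, was lower in every B2m-null sample. It measured 1541, 862.2 and 1858 CPM in the control samples, the pool's lanes giving 1772 and 1972 CPM, and 157.5, 155.0, 365.3 and 333.7 CPM in the B2m-null samples. The groups did not overlap. The log2 fold change was -2.69 (SE 0.18), with an adjusted p of 3.04e-05 by edgeR's quasi-likelihood test, and it was called under all 19 alternatives (range -2.91 to -2.27). Counts come from the 3′ end of the transcript, and where the line's edit lies is not given, so a remaining B2m count does not show a functional transcript.

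In Ptprc-positive barcodes the genotypes differed by -0.20 on the log2 scale (edgeR adjusted p = 0.427). These barcodes stand for host cells, whose B2m is intact, but they also hold some tumour RNA. Of 81293 such barcodes, 459 held at least 30 pigment UMIs, and 6.29% to 16.5% per lane held any. Setting melanoma cells against those barcodes of the same sample gave log2 ratios of -1.14, -1.97 and -1.28 in control samples and -4.08, -4.08, -3.52 and -3.57 in B2m-null samples. The exact two-sided permutation p was 0.0571, the smallest that 4 against 3 samples can give, and 0.229 after adjustment over 4 measures. As a gene contrast tested against Ptprc-positive barcodes of the same samples, B2m fell by 2.42 (adjusted p = 0.0106) and was the 1 gene called.

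B2m in the B2m-null cells was set beside the myeloid genes as a measure of leukocyte RNA. B2m stood at 5.91%, 5.90%, 8.71% and 8.40% of its level in Ptprc-positive barcodes in B2m-null samples, where the 4 myeloid genes stood at 1.41%, 0.770%, 1.98% and 0.780%. At the myeloid genes' share B2m would have measured 37.4, 20.2, 82.8 and 31.0 CPM, against the 157.5, 155.0, 365.3 and 333.7 CPM observed. In B2m-null CD40 replicate 1, however, the leukocyte genes Ccl5 and Cxcl9 stood at 10.8% and 9.24%, above the share of B2m. The part of leukocyte RNA in the remaining B2m was not tested. In control samples B2m reached 45.5%, 25.5% and 41.2% of the level in Ptprc-positive barcodes.

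Single cells showed the same separation. The median cell held 15.6 and 7.22 B2m UMIs per 10000 of its UMIs in control isotype, 17.9 and 18.9 in the control CD40 lanes, 1.30 and 1.03 in B2m-null isotype, and 2.56 and 2.71 in B2m-null CD40. More than 5 per 10000 were present in 344 of 405 control cells and in 33 of 362 B2m-null cells. By lane that share was 84.5% and 66.7% in control isotype and 90.2% and 92.6% in the control CD40 lanes. It was 4.37% and 4.55% in B2m-null isotype and 31.3% and 25% in B2m-null CD40, the latter from 15 of 48 and 5 of 20 cells. No B2m UMI was found in 4 control and 37 B2m-null cells. Cells of a lane share their pool and are not replicates, so no test was made over cells.

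**Figure D3:**
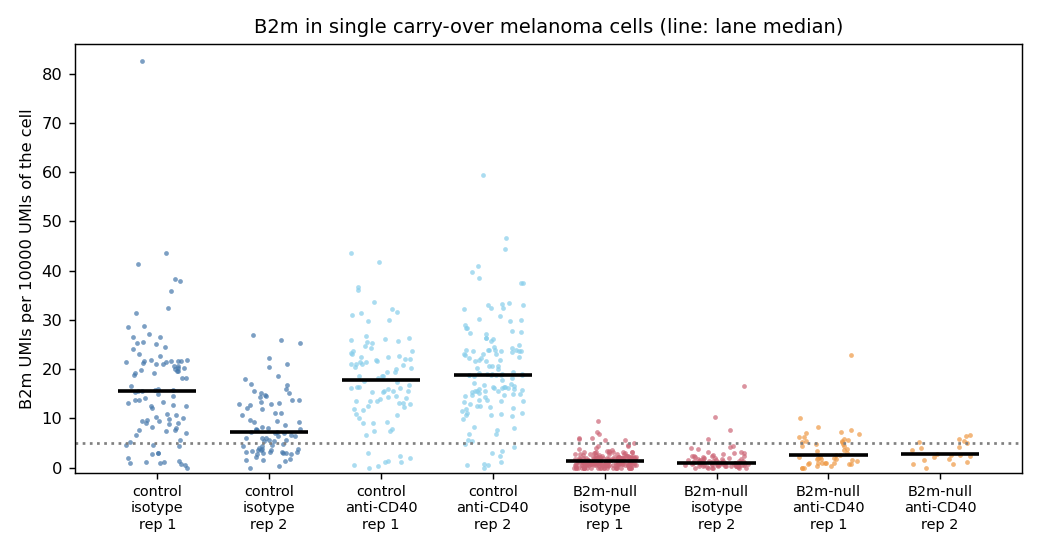
B2m UMIs per 10000 UMIs in each of 767 melanoma cells by lane; horizontal lines are lane medians and the dotted line marks 5 per 10000. Control lanes have medians of 7.22 to 18.9 and B2m-null lanes of 1.03 to 2.71, with a lower-lying group of cells in the control lanes as well.

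The B2m-null and control cells were then compared across all genes, with both treatments weighted equally. Besides B2m, other antigen presentation genes were lower in B2m-null cells, and Hmox1 and Ndrg1 were higher. edgeR called 18 of 10668 genes, 16 lower (0.15% of genes tested) and 2 higher (0.0187%). Of 22 tested genes of MHC class I presentation, 10 were lower and none higher, with a median log2 fold change of -1.32 against -0.0042 over all genes tested. The list was chosen with results of these data known. H2-Q6 had too few counts to be tested.

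Among heavy chains, H2-K1 measured 438.2, 248.3 and 543.8 CPM in control samples and 89.2, 85.3, 344.0 and 242.5 CPM in B2m-null samples. The B2m-null isotype samples were lowest, and the B2m-null CD40 samples overlapped control isotype replicate 2. The log2 fold change was -1.44 (SE 0.19, edgeR adjusted p = 0.0168). H2-D1 followed with -1.18 (SE 0.17, edgeR adjusted p = 0.0194), from 544.3, 330.5 and 572.3 CPM to 106.0, 126.2, 393.6 and 452.5 CPM. Heavy chains of near-identical sequence can share reads, so their separate values are uncertain.

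Among proteasome genes, Psmb9, a catalytic subunit of the immunoproteasome, measured 255.9, 63.7 and 280.3 CPM in control and 10.6, 14.3, 104.2 and 134.4 CPM in B2m-null samples (log2 fold change -2.46, SE 0.36, edgeR adjusted p = 0.0194). Psmb8, another catalytic subunit, fell by 2.48 on the log2 scale (SE 0.41, edgeR adjusted p = 0.0343), and Psme2, a subunit of the proteasome activator, by 1.34 (SE 0.19, edgeR adjusted p = 0.0194). Psmb10 and Psme1 were also called lower. Control isotype replicate 2 was the lowest control sample for each of these genes.

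Of the loading and trimming steps, Tapbp, which holds class I molecules at the transporter, fell by 1.47 (SE 0.23, edgeR adjusted p = 0.0293). Erap1, the peptidase that trims peptides in the endoplasmic reticulum, measured 58.3, 37.8 and 47.8 CPM in control and 16.8, 15.1, 27.3 and 19.2 CPM in B2m-null samples, with no overlap, and was called lower. The transporter gene Tap1 was at 99.7, 33.8 and 114.5 CPM and at 14.1, 20.9, 75.9 and 66.01 CPM, which overlapped and did not pass (log2 fold change -1.31, SE 0.29, edgeR adjusted p = 0.164). It stayed uncalled under 16 of 19 alternatives, and its log2 fold change ranged from -1.61 to -0.827 over all 19. It passed after thinning to 3000 UMIs (edgeR adjusted p = 0.00978) and without control isotype replicate 2. With the control CD40 lanes as 2 samples, which counts 1 pool as 2, it also passed (edgeR adjusted p = 0.0351). The chaperones Calr, Canx and Pdia3, which serve glycoproteins at large, had log2 fold changes of 0.42, 0.09 and 0.27 and were not called.

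Outside the list, Axl, a receptor tyrosine kinase, fell by 2.12 on the log2 scale (SE 0.31, edgeR adjusted p = 0.0194), from 45.0, 18.0 and 52.5 CPM to 7.86, 4.51, 17.2 and 10.8 CPM, with no overlap. Plaat3, a phospholipase, fell by 1.51 (SE 0.18, edgeR adjusted p = 0.0104), from 33.99, 27.2 and 54.2 CPM to 9.22, 10.6, 19.2 and 22.8 CPM. The remaining genes called lower were the class II genes Cd74, H2-DMa and H2-Eb1 and the phosphatase Ptpn18, which are named here after their values were seen. Cd74 in melanoma cells stood at 0.600% to 2.71% of its level in Ptprc-positive barcodes in B2m-null samples and at 1.47% to 11.8% in control samples, beside 0.590% to 1.98% for the 4 myeloid genes, and the part of leukocyte RNA in its difference was not tested.

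The higher genes were Hmox1, which breaks down haem, and Ndrg1, a gene induced by low oxygen. Hmox1 measured 66.6, 60.6 and 42.9 CPM in control and 107.1, 115.6, 92.1 and 120.0 CPM in B2m-null samples, with no overlap (log2 fold change 1.04, SE 0.15, edgeR adjusted p = 0.0194). Ptprc-positive barcodes held more Hmox1, at 744.0, 1469 and 465.8 CPM in control and 1390, 1711, 725.1 and 911.6 CPM in B2m-null samples, which overlapped. Over 19 alternatives the log2 fold change of Hmox1 in melanoma cells ranged from 0.345 to 1.14. The part of leukocyte RNA in it was not tested. Ndrg1 measured 62.9, 92.3 and 21.5 CPM against 69.4, 79.5, 94.1 and 97.2 CPM, where the control CD40 pool alone was apart (log2 fold change 1.04, SE 0.17, edgeR adjusted p = 0.0343).

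None of the 32 interferon response genes was called between genotypes (edgeR), although 29 had a negative log2 fold change, with a median of -1.17. Of all genes tested, 0.15% were called lower and 0.0187% higher, so the absence of calls says little about the list. Cd274, which encodes PD-L1, measured 41.3, 12.7 and 46.0 CPM in control and 7.32, 6.36, 28.3 and 13.2 CPM in B2m-null samples, which overlapped. Under isotype alone 10 class I genes were called lower (of all genes tested, 0.178% were), with a median of -1.92, and under CD40 alone B2m was the 1 class I gene called lower (of all genes tested, 0.0469% were), with a median of -0.69. Of the interferon genes, Gbp2 and Gbp3 were called lower under isotype alone, with 31 of 32 negative and a median of -1.91, and none under CD40 alone, with a median of -0.27. In Ptprc-positive barcodes the interferon list had medians of -0.35 between genotypes, -0.82 under isotype alone and 0.06 under CD40 alone. The class I list had medians there of -0.58 under isotype alone and 0.09 under CD40 alone. The interaction, tested gene by gene, was not called for any of the 22 class I genes (edgeR), although 21 of its 22 log2 values were positive. It was called for 0.187% of all genes tested, so a list of this size would hold few calls in any case.

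The genotype calls other than B2m needed both B2m-null isotype samples. Without B2m-null isotype replicate 1, or without replicate 2, 1 gene was called, which was B2m. Among genes no longer called there, the log2 differences were -1.43 and -1.44 for H2-K1 and -2.33 and -2.59 for Psmb9. Without B2m-null CD40 replicate 1 there were 9, and without control isotype replicates 1 and 2 there were 18 and 81. In Ptprc-positive barcodes of the same samples the median of the class I list was -0.21, and relative to those barcodes no gene other than B2m was called. Over all 19 alternatives the log2 difference ranged from -1.62 to -1.07 for H2-K1 and from -2.81 to -1.80 for Psmb9. It ranged from -2.38 to -1.02 for Axl and from -4.36 to -1.82 for Psmb8.

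**Figure D4:**
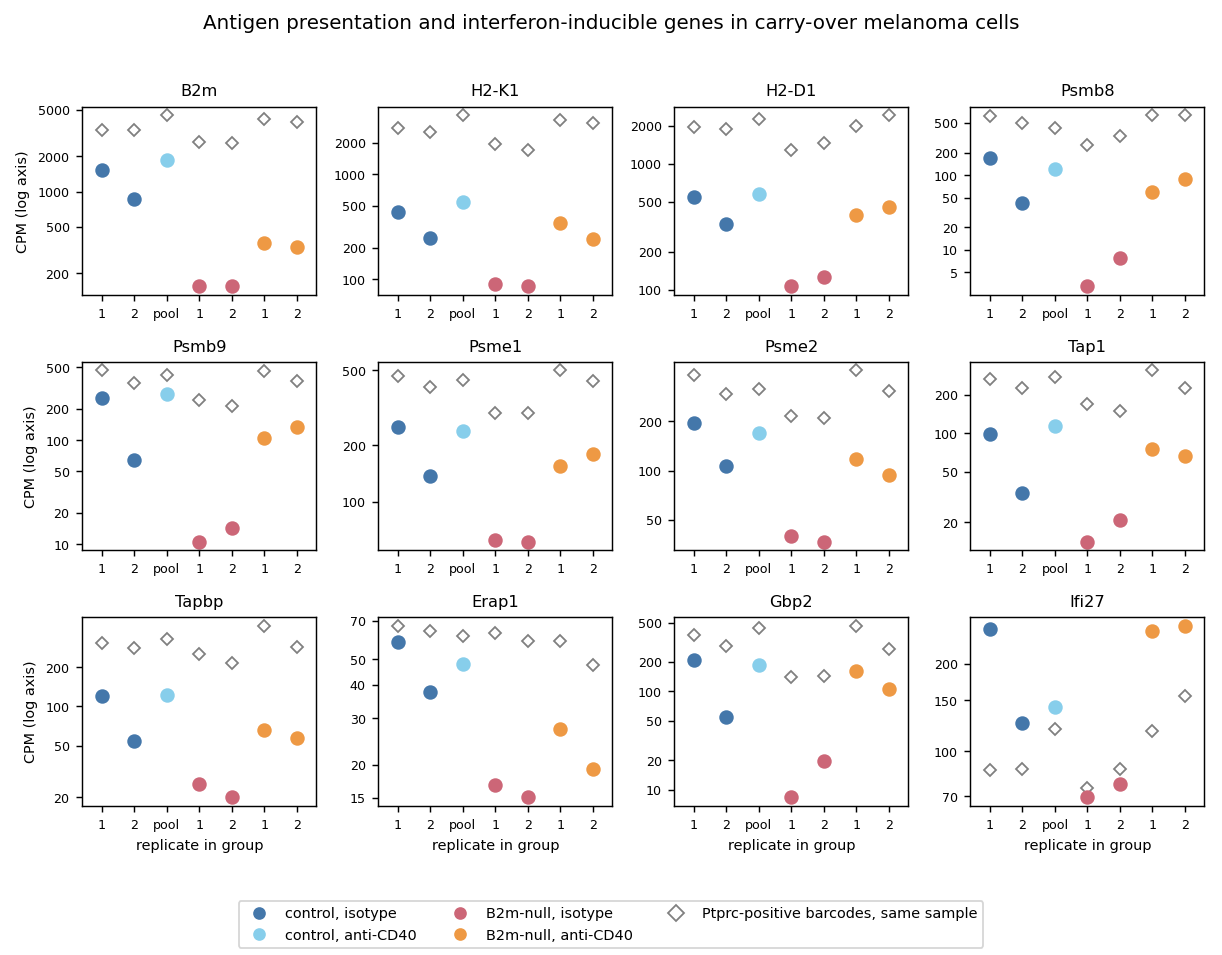
CPM (log axes) of 12 antigen presentation and interferon-inducible genes in melanoma cells (circles, coloured by group) and in Ptprc-positive barcodes of the same sample (open diamonds), for 7 samples. B2m-null isotype samples are lowest for most genes, as for Psmb9 at 10.6 and 14.3 CPM, and B2m stays apart between genotypes under both treatments.

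The response to anti-CD40 within B2m-null tumours was compared between 2 samples per arm. The class I heavy chains H2-D1 and H2-K1, immunoproteasome genes and a few interferon-inducible genes were higher in melanoma cells of CD40-treated tumours, as they were in Ptprc-positive barcodes. edgeR called 15 genes higher (0.141% of 10668) and 3 lower (0.0281%). Of the 22 class I genes 6 were higher, with a median log2 fold change of 1.67, and of 32 interferon response genes 2 were higher, Gbp2 and Cxcl9. All 32 interferon genes had a positive log2 fold change, with a median of 1.83 against -0.0069 over all genes tested. The list was chosen with results of these data known.

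H2-D1 went from 106.0 and 126.2 CPM under isotype to 393.6 and 452.5 CPM under CD40 (log2 fold change 1.99, SE 0.23, edgeR adjusted p = 0.0171). H2-K1 went from 89.2 and 85.3 CPM to 344.0 and 242.5 CPM (1.88, SE 0.25, edgeR adjusted p = 0.0273). Psmb8, at 3.25 and 7.69 CPM from 12 and 29 UMIs under isotype, reached 59.7 and 87.6 CPM (3.85, SE 0.64, edgeR adjusted p = 0.0397). These CD40 levels lay within or near the range of the control isotype samples. Psmb9, Psme1 and Psme2 rose by 3.38, 1.56 and 1.59 on the log2 scale, and each was called.

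Gbp2, a guanylate-binding protein, went from 8.40 and 19.4 CPM to 160.9 and 105.6 CPM (3.39, SE 0.56, edgeR adjusted p = 0.0397). Ifi27, an interferon-inducible mitochondrial protein, was higher in melanoma cells than in Ptprc-positive barcodes in 5 of 7 samples and went from 69.7 and 77.4 CPM to 260.0 and 270.1 CPM (1.98, SE 0.28, edgeR adjusted p = 0.0309). B2m went from 157.5 and 155.0 CPM to 365.3 and 333.7 CPM, with no overlap, and was not called (1.29, SE 0.23, edgeR adjusted p = 0.0669; 0.000176 by DESeq2).

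The chemokine genes need the leukocyte background beside them. Cxcl9, a T cell attractant, was at 2.71 and 1.59 CPM under isotype and at 66.8 and 9.60 CPM under CD40, from 10, 6, 66 and 8 UMIs (4.29, SE 0.72, edgeR adjusted p = 0.0397). In those samples it stood at 1.54%, 0.809%, 9.24% and 1.65% of its level in Ptprc-positive barcodes, beside 1.41%, 0.770%, 1.98% and 0.780% for the 4 myeloid genes. Ccl5, another T cell attractant, was at 7.86, 3.45, 93.1 and 18.0 CPM, which was 3.27%, 0.869%, 10.8% and 0.561% of its level in Ptprc-positive barcodes (3.46, SE 0.56, edgeR adjusted p = 0.0397). Without CD40 replicate 1 the log2 fold changes were 2.29 for Cxcl9 and 1.82 for Ccl5, and relative to Ptprc-positive barcodes 2.26 and 0.91, and none of these was called by edgeR. The part of leukocyte RNA in both results was not tested.

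Genes more abundant in melanoma cells than in leukocytes also rose. Ccn1, a matricellular protein, went from 58.8 and 68.1 CPM to 313.7 and 159.6 CPM, against 4.77 to 12.0 CPM in Ptprc-positive barcodes (2.03, SE 0.25, edgeR adjusted p = 0.0186). Tnfrsf12a, the receptor of the cytokine TWEAK, went from 23.04 and 21.2 CPM to 60.7 and 50.4 CPM (1.46, SE 0.21, edgeR adjusted p = 0.0309). Nupr1, a stress-induced chromatin protein, went from 61.8 and 107.6 CPM to 281.3 and 198.0 CPM (1.62, SE 0.27, edgeR adjusted p = 0.0397). The other genes called higher, Ifitm3 and Psmd8, are named after their values were seen.

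The 3 lower genes were Brca2, of DNA repair by homologous recombination, the linker histone Hist1h1e and the mitochondrially encoded mt-Nd4l. Brca2 went from 48.5 and 52.7 CPM to 14.2 and 19.2 CPM (-1.49, SE 0.25, edgeR adjusted p = 0.0397). Hist1h1e went from 65.1 and 86.7 CPM to 17.2 and 25.2 CPM (-1.73, SE 0.28, edgeR adjusted p = 0.0397), and mt-Nd4l from 674.4 and 606.9 CPM to 291.4 and 280.9 CPM (-1.03, SE 0.16, edgeR adjusted p = 0.0397). In Ptprc-positive barcodes Hist1h1e differed by -1.31 and mt-Nd4l by -0.93 in the same comparison, both called.

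Ptprc-positive barcodes of the same samples changed widely with CD40, with 1405 genes higher and 1328 lower. Of the 18 genes called in melanoma cells, all 18 had the same sign there and 15 were called with it. The interferon list had a median of 0.91 there, against 1.83 in melanoma cells. Tested against those barcodes, no gene was called (1296 at an unadjusted p under 0.05, edgeR), and a response particular to the melanoma cells was therefore not shown. The smaller CD40 samples hold 48 and 20 cells. The count of called genes was 0 without B2m-null isotype replicate 1 (998 at an unadjusted p under 0.05, edgeR), 39 without isotype replicate 2, 2 without CD40 replicate 1 and 129 without CD40 replicate 2. It was 68 and 69 without control isotype replicate 1 and 2.

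In control tumours the CD40 pool was compared with 2 isotype samples, with the spread taken from the other groups. The genes called were mostly nuclear genes of the ribosome and the respiratory chain. edgeR called 57 genes higher (0.534% of 10668) and 2 lower (0.0187%). Of 92 ribosomal protein genes 12 were higher, with log2 fold changes of 0.93 to 1.51, and of 85 genes of the respiratory chain and ATP synthase 25 were higher, from 0.91 to 1.477, the latter for Atp5k. The grouping of these genes was made after their values were seen. Without control isotype replicate 1, 40 genes were called, of which 15 were among the 59, and without replicate 2, 1 gene, which was not among them.

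Rps28, of the small ribosomal subunit, measured 682.2 and 772.5 CPM under isotype and 1879 CPM in the CD40 pool (1.51, SE 0.19, edgeR adjusted p = 0.00426). Cox17, a copper chaperone for cytochrome c oxidase, went from 241.6 and 247.4 CPM to 624.6 CPM (1.497, SE 0.17, edgeR adjusted p = 0.00426). Both lanes of the pool were high, with 1859 and 1904 CPM for Rps28. The B2m-null samples lay between, at 918.2 to 1252 CPM for Rps28 and 271.2 to 382.5 CPM for Cox17. Rpl38, Dpm3, Atp5md, Ndufa3, Romo1 and Uqcr11 were the other genes with the largest rises under the rule for named genes.

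The same genes stood high in the leukocytes of that pool. Rps28 in Ptprc-positive barcodes was at 713.9 and 803.7 CPM under isotype and 1688 CPM in the pool, and Cox17 at 251.8, 229.1 and 522.0 CPM. All 59 called genes had the same sign in Ptprc-positive barcodes and 51 were called there with it. Relative to those barcodes no gene was called (998 at an unadjusted p under 0.05, edgeR). The control CD40 group is 1 pool, so the pool and the treatment cannot be told apart.

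**Figure D5:**
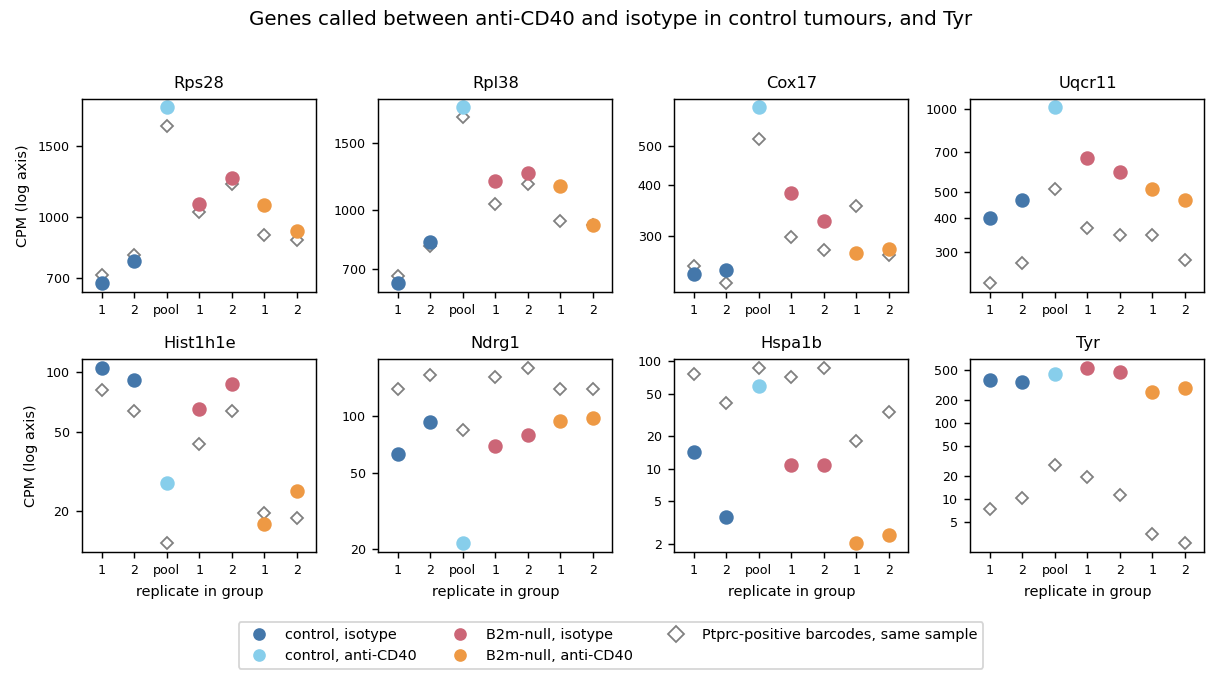
CPM (log axes) of 7 genes called between CD40 and isotype in control tumours, and of Tyr, in melanoma cells (circles, coloured by group) and in Ptprc-positive barcodes of the same sample (open diamonds), for 7 samples. For Rps28, Rpl38 and Cox17 the pool stands above all other samples in both kinds of barcode, whereas Tyr is higher in melanoma cells throughout.

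Of the other genes called in control tumours, Hspa1b, an inducible heat shock chaperone, measured 14.2 and 3.52 CPM under isotype and 59.3 CPM in the pool (2.89, SE 0.42, edgeR adjusted p = 0.00853), and in Ptprc-positive barcodes the log2 difference was 0.61 (adjusted p = 0.414). S100a1, a calcium-binding protein of the melanocytic list, went from 123.6 and 121.7 CPM to 251.8 CPM (1.18, SE 0.17, edgeR adjusted p = 0.00957), and relative to Ptprc-positive barcodes the value was -0.36. Ccl5 went from 8.73 and 7.47 CPM to 60.7 CPM, at 1.40%, 1.38% and 1.55% of its level in Ptprc-positive barcodes, beside 1.15%, 0.590% and 1.39% for the 4 myeloid genes. Ndrg1 fell by 1.71 on the log2 scale (SE 0.27, edgeR adjusted p = 0.0137), from 62.9 and 92.3 CPM to 21.5 CPM, and Hist1h1e fell by 1.67 (SE 0.27, edgeR adjusted p = 0.0146), from 105.2 and 90.5 CPM to 27.7 CPM. Relative to Ptprc-positive barcodes, where it was also lower, Hist1h1e was at 0.63 (edgeR adjusted p = 0.437).

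Class I and interferon genes did not pass in control tumours, with 0 of 22 and 0 of 32 called by edgeR and medians of 0.58 and 0.28. Since 0.534% of all genes were called higher in this comparison, these counts say little about the lists. H2-K1 was at 438.2 and 248.3 CPM under isotype and 543.8 CPM in the pool (0.81, SE 0.28, edgeR adjusted p = 0.385), and Gbp2 at 206.7, 54.5 and 183.9 CPM. The isotype samples differed from each other, replicate 1 being above replicate 2 for both genes. Without control CD40 lane 2, 35 genes were called between CD40 and isotype, and without lane 1 there were 114. Without either B2m-null CD40 sample there were 98 and 95.

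The CD40 differences of the lines were compared as an interaction, in which the control arm is 1 CD40 pool, so that treatment and pool cannot be told apart. edgeR called 20 genes (0.187%), 2 positive and 18 negative, and none relative to Ptprc-positive barcodes (823 at an unadjusted p under 0.05, edgeR). The positive ones were Tnfrsf12a (2.2, SE 0.32, adjusted p = 0.0336) and Ndrg1 (2.2, SE 0.34, adjusted p = 0.0381). The negative ones were Hspa1b (-5.04, SE 0.82, adjusted p = 0.0382), mt-Nd4l (-1.61, SE 0.24, adjusted p = 0.0363) and 16 others, among them 5 ribosomal protein genes, 7 genes of the respiratory chain and ATP synthase, and Cox17. Hspa1b rested on 2 UMIs in each B2m-null CD40 sample, and on 31 and 8 UMIs in the control isotype samples. All 32 interferon genes had a positive interaction, with a median of 1.74, and none was called. The interferon list had a median interaction of 1.06 in Ptprc-positive barcodes. There all 20 genes called in melanoma cells had the same sign. The count was 0 without B2m-null isotype replicate 1, isotype replicate 2 or CD40 replicate 1 (682, 1450 and 1481 at an unadjusted p under 0.05, edgeR), 5 without CD40 replicate 2, 2 and 33 without control isotype replicates 1 and 2, and 8 without control CD40 lane 2.

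The share of cycling cells overlapped between the genotypes. Cells with at least 3 UMIs over Mki67, Top2a, Cdk1, Ccnb1, Ccna2, Birc5, Cenpf and Tpx2, after thinning each to 3000 UMIs, made up 40.2%, 44.4% and 40.1% in control samples and 60.5%, 54.5%, 27.1% and 55.0% in B2m-null samples. Thinning left out 6 cells. Before thinning the lanes ranged from 50% to 83.0%. The means of 41.6% ± 2.48 (SD, n = 3) and 49.3% ± 15.0 (SD, n = 4) differed by less than the spread (exact two-sided permutation p = 0.457, adjusted p = 0.914 over 4 measures). None of 31 cell cycle genes was called by edgeR in any of the 3 comparisons between 2 groups or in the interaction. Over all genes 0.0187% to 0.534% were called per direction in those comparisons and 0.187% in the interaction. The absence of calls therefore says little about the list. Mki67, the proliferation antigen, was at 92.1 CPM in B2m-null CD40 replicate 1 and between 162.9 and 315.9 CPM in the other 6 samples.

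Few genes of the other lists were called, as of all genes tested, where the shares were 0.15% lower and 0.0187% higher by genotype, 0.141% higher with CD40 in B2m-null and 0.534% higher with CD40 in control tumours. Of 24 tested genes of hypoxia and glycolysis, Ndrg1 was the 1 gene called between genotypes and in control tumours. Of 18 heat shock and stress genes, Hspa1b was the 1 called. Of 14 tested genes of dedifferentiation and matrix, Axl was lower in B2m-null cells and Ccn1 higher with CD40 in B2m-null cells, and 8 of the list's 22 genes, among them Ngfr and Twist1, had too few counts. None of 13 tested genes of immune recognition and death receptors was called by edgeR. Cd40 itself had 0 to 3 UMIs in every sample of melanoma cells, against 33.6 to 73.1 CPM in Ptprc-positive barcodes.

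Within lanes, cells with more B2m also held more heavy chain transcripts. Spearman's rho between B2m and the sum of H2-K1 and H2-D1, each per UMI of the cell, was 0.748 and 0.815 over 97 and 81 control isotype cells, 0.790 and 0.646 over 92 and 135 control CD40 cells, 0.357 and 0.556 over 206 and 88 B2m-null isotype cells, and 0.742 and 0.665 over 48 and 20 B2m-null CD40 cells. Between B2m and the depth of the cell it was -0.105 to 0.236. Cells of a lane share pool and library, so these values are a description without a test. The median B2m-null isotype cell held 2 and 4 B2m UMIs. Ptprc-positive barcodes averaged 3532 CPM of B2m, 2731 of H2-K1 and 1904 of H2-D1, against 753.2, 284.5 and 360.8 CPM in melanoma cells. The part of leukocyte RNA in these correlations was not tested.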

How the data were processed

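Per the file headers, the deposited matrices hold raw UMI counts per gene and barcode, and each also has rows of hashtag antibody counts. The libraries are of the 3′ version 3 chemistry, per the labels' protocols. Reads were processed by the authors with Cell Ranger 3.0.0 and bcl2fastq 2.20.0.422 on build mm10, per the submitters' processing notes. Each matrix lists 32285 genes. Lanes held 45985739 to 99264875 gene UMIs, and the labels list 3 hashtags, whereas 2 of the 8 files hold 3 and the other 6 hold 2. Column 1 of the barcode and feature files holds names only.

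Melanoma cells, and separately all passing barcodes with a Ptprc UMI, were summed per sample. A sample entered with at least 10 cells. edgeR 4.0.16 (R 4.3.3) fitted its quasi-likelihood model to 7 samples in 4 groups with TMM scaling and filterByExpr, and called genes at a Benjamini-Hochberg adjusted p under 0.05. Values per sample were compared with two-sided exact permutation tests (scipy 1.17.1), which with 3 against 4 samples cannot go below 0.0571. CPM is UMIs per 1000000 over the summed cells. Intervals of shares are exact Clopper-Pearson at 95% and cover counting error only. The cells and gene lists were chosen with earlier results of these data known. Named genes were Mlana, Pmel, Dct, Tyrp1, B2m, H2-K1, H2-D1 and Tap1. To these came, for each comparison, the 8 largest rises and falls among called genes whose samples did not overlap and that were at least as abundant as in Ptprc-positive barcodes, the 3 largest of each among less abundant genes, and up to 6 called genes per list. Other genes with values are the rest of those lists and genes said to be named afterwards. No doublet caller was run. The limits on Ptprc, Cd3 and C1q leave out mixed barcodes in which these leukocyte genes were counted. Mixed barcodes without such counts, or with up to 5 C1q UMIs, can remain. The top 5% of cells by UMIs were left out as an alternative. Marker lists covered melanoma, macrophage, T cell, fibroblast, endothelial, Schwann cell, keratinocyte, erythrocyte and neutrophil genes. The 4 neutrophil markers, not given with the results, summed to 0 to 2.02 CPM.

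The edgeR steps were tested on simulated data for the genotype comparison over 10364 genes. There 72.2% of 2-fold and 96.9% of 4-fold changes were recovered and 5.17% of called genes were false. The simulation gave all genes the same dispersion, 0.0197, and no further difference between pools. These rates therefore need not hold for the fits to the real data. Alternatives were RLE scaling, DESeq2 1.42.0, no filter, each sample left out, other limits of the cell rule, thinning to 3000 UMIs, the control CD40 lanes as 2 samples, the replicate number as a block, and, chosen after seeing the data, the difference from Ptprc-positive barcodes of the same samples.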

Additional observations from a re-analysis of the deposited data

Results flagged for a closer look

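The log2 difference between CD40 and isotype samples in B2m-null tumours, minus that in control tumours, passed edgeR's interaction test over all genes at an adjusted p under 0.05 for 20 genes. The control CD40 arm is 1 pool, so a difference in response to the treatment cannot be told apart from a difference of that pool, and no gene was called relative to Ptprc-positive barcodes of the same samples (823 at an unadjusted p under 0.05, edgeR). The difference was 2.2 for Tnfrsf12a and 2.2 for Ndrg1, -5.04 for the heat shock gene Hspa1b and -1.61 for mt-Nd4l. The Hspa1b value rests on 2 UMIs in each B2m-null CD40 sample. Among ribosomal protein genes it was -1.55 for Rpl37a, -1.61 for Rpl38, -1.51 for Rpl41, -1.62 for Rps28 and -1.50 for Rps29. Among genes of the respiratory chain and ATP synthase it was -1.34 for Atp5e, -1.58 for Atp5k, -1.62 for Atp5md, -1.60 for Atp5mpl, -1.43 for Ndufa3, -1.35 for Ndufb1-ps and -1.60 for Uqcr11. It was -1.73 for Cox17, -1.61 for Dpm3, -1.43 for Romo1 and -1.39 for Tomm7. In Ptprc-positive barcodes of the same samples all 20 genes had the same sign and none was called (edgeR; 3500 genes at an unadjusted p under 0.05). The part of the 1 pool in these values was not tested.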

How the results depend on the processing

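B2m kept its call between genotypes under all 19 alternatives. Counts of called genes moved with the setting and with single samples, and the cause was not tested. They are given here in the order genotype, CD40 in B2m-null, CD40 in control and interaction, where the main counts were 18, 18, 59 and 20. DESeq2 called 162, 124 and 66 in the last 3, and 24 by genotype. Without a filter on low counts there were 39 by genotype and 36 for CD40 in B2m-null. With the control CD40 lanes as 2 samples there were 45, 149, 195 and 82. The replicate number as a block, with those lanes as 2 samples, gave 41, 49, 143 and 38. Deviations of same-numbered lanes from their group means had correlations of -0.0926 to 0.115 over genes. In each group with replicate pools, the median melanoma cell held more UMIs in replicate 2. The whole lane of control isotype held more in replicate 1, at 80047500 against 69355126 gene UMIs. Median UMIs of melanoma cells in replicates 1 and 2 were 21348 and 27500 in control isotype and 16041 and 38972 in B2m-null isotype. In B2m-null CD40 they were 20148 and 44290. A batch shared by same-numbered lanes was not tested. At most 5% mitochondrial UMIs gave 33, 6 and, for the interaction, 0 genes (788 at an unadjusted p under 0.05, edgeR), and C1q UMIs at 0 gave 87 for CD40 in B2m-null and 1 for the interaction; both leave out B2m-null CD40 replicate 2, with 6 and 5 cells. Thinning to 3000 UMIs gave 37, 66, 100 and 56, and leaving out the top 5% by UMIs gave 31 for CD40 in B2m-null. Relative to Ptprc-positive barcodes 1, 0, 0 and 0 genes were called (805, 1296, 998 and 823 at an unadjusted p under 0.05, edgeR), and there Hist1h1e and S100a1 in control tumours turned to 0.63 and -0.36. Leaving out each sample gave 1 to 81 by genotype, 0 to 129 for CD40 in B2m-null, 1 to 114 for CD40 in control and 0 to 33 for the interaction; an arm left with 1 sample is assumed to vary like the others.

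The genotype difference in the share of melanoma cells, 0.0193 percentage points, changed sign with C1q UMIs at 0 (-0.00599), at most 5% mitochondrial UMIs (-0.0367), lanes as 2 samples (-0.00655) and barcodes without Ptprc as the denominator (-0.304), and ranged from -0.291 to 0.218 when a sample was left out. The genotype difference in the log2 hashtag ratio ranged from -0.151 to 0.194 in the same way, and that in the cycling share was -11.7 percentage points with C1q UMIs at 0. None of these passed a test. B2m relative to Ptprc-positive barcodes was -2.41 with lanes as 2 samples; its exact permutation p of 0.0286, against 0.0571 with 7 samples, comes from counting 1 pool as 2. The mouse as the unit was not run, since 1 hashtag had at least 10 assigned cells. The B2m-null CD40 samples rest on 48 and 20 cells.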
